A study of Mus musculus with 12 samples.

Results

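The Notch pathway genes described here are 10 mouse genes: the ligand genes Dll1, Dll4 and Jag1, the receptor genes Notch1 and Notch2, the receptor-modifying gene Lfng and the Hes and Hey family genes Hes1, Hes5, Hes6 and Hey1. They were listed by name, with earlier results of these data known, out of 21866 protein-coding genes in the annotation GENCODE M21 (assembly GRCm38, called mm10 by the submitters). Peaks were collected over each gene body plus 5 kb on either side, here called the window of the gene, which gave 111 peaks from 8 peak lists. Crypts and villi were isolated from the small intestine of mice, whose strain, age and number are not given in the sources used here. Villi were scraped off the opened intestine, and crypts were released with EDTA from the tissue that remained, so that both are bulk preparations. Their chromatin was immunoprecipitated for 5 post-translational modifications (PTMs) of histone H3 and sequenced with an input per compartment (12 libraries) in a study of proteolytic clipping of the H3 tail, which mapped these PTMs genome-wide in both compartments. The method, ChIP-Rx, is ChIP-seq with a fixed share of foreign chromatin, here 5% from Drosophila S2 cells, added as a reference.

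Notch is a receptor on the cell surface that is activated by Delta and Jagged ligands on a neighbouring cell. After cleavage its intracellular part enters the nucleus, joins the DNA-binding protein RBPJ and turns on genes of the Hes and Hey families, which encode transcriptional repressors. In the intestine this signal keeps stem and progenitor cells of the crypts dividing and directs cells away from the secretory lineage. H3K4me3 marks the start sites of active and poised genes, H3K4me1 flanks start sites and marks enhancers, H3K27me3 is deposited by Polycomb complexes at repressed genes and H3K9me3 marks heterochromatin. A promoter with overlapping H3K4me3 and H3K27me3 is called bivalent, which here means an overlap of called peaks.

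With 1 library per compartment and PTM, the spread between replicates could not be measured, and every difference is described without a p-value. The lists hold peak positions and a score, taken as the authors' −log10 p-value, which depends on the depth of the library and is not scaled by the spike-in. Read counts are not part of the lists, so the depth is unknown. Scores serve as ranks within a list, and where a score of 20 or more is set as an alternative, the same value can stand for different depths in crypts and villi. In bulk chromatin, fewer cells of a type and less PTM per cell cannot be told apart. Peaks of different PTMs come from separate libraries, so whether overlapping peaks lie in the same cells is not known. An H3K4me3 peak within 1 kb of a start site was present in both compartments at 5 of 5 epithelial markers (Epcam, Cdh1, Cdx2, Vil1 and Krt8) and 7 of 7 villi markers, and at 5 of 6 crypts markers in crypts against 4 of 6 in villi. Such a peak was present at 0 of 5 immune markers in crypts and at 3 of 5 in villi (Ptprc, Cd3e and Cd8a), at 0 and 1 of 5 endothelial markers and at 1 and 2 of 5 fibroblast and smooth muscle markers. Apart from those of the epithelial and villi markers, these counts moved with the compartment beside every difference given here. Their part in the results was not tested.

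All 10 Notch pathway genes had an H3K4me3 peak within 1 kb of a coding start site (here a start-site peak) in crypts and in villi. Among all protein-coding genes the share was 57.7% in crypts, 57.9% in villi and 56.6% in both. An H3K4me1 start-site peak was called at 10 of the 10 genes in crypts and at 7 in villi, where 57.8% and 56.1% of all genes had one. This order depended on the setting, with 5 and 5 genes at a score of 20 or more, 5 and 7 in the top 50% of each list and 10 and 10 within 2.5 kb. The 3 genes with a call in crypts only were the 3 ligand genes, whereas 5.68% of all genes had this pattern. H3K27me3 start-site peaks were called at the same 3 genes in both compartments, namely Lfng, Hes5 and Hey1, against 13.1% of all genes in crypts, 16.1% in villi and 12.4% in both. At each of these 3 genes the H3K27me3 peak overlapped the H3K4me3 peak, a bivalent arrangement found at 5.89% of all genes in crypts, 6.85% in villi and 4.85% in both. With only the top 50% of each list by score, 0 of the 10 genes were bivalent in either compartment. No H3K9me3 peak lay in any of the 10 windows, as for most genes, since 3.89% of all windows held one in crypts and 3.11% in villi, and 0.38% and 0.311% of all genes had one at a start site. The nearest H3K9me3 peak to a Notch pathway gene was 58604 bp from Notch2 in crypts and 58147 bp in villi.

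**Figure D1:**
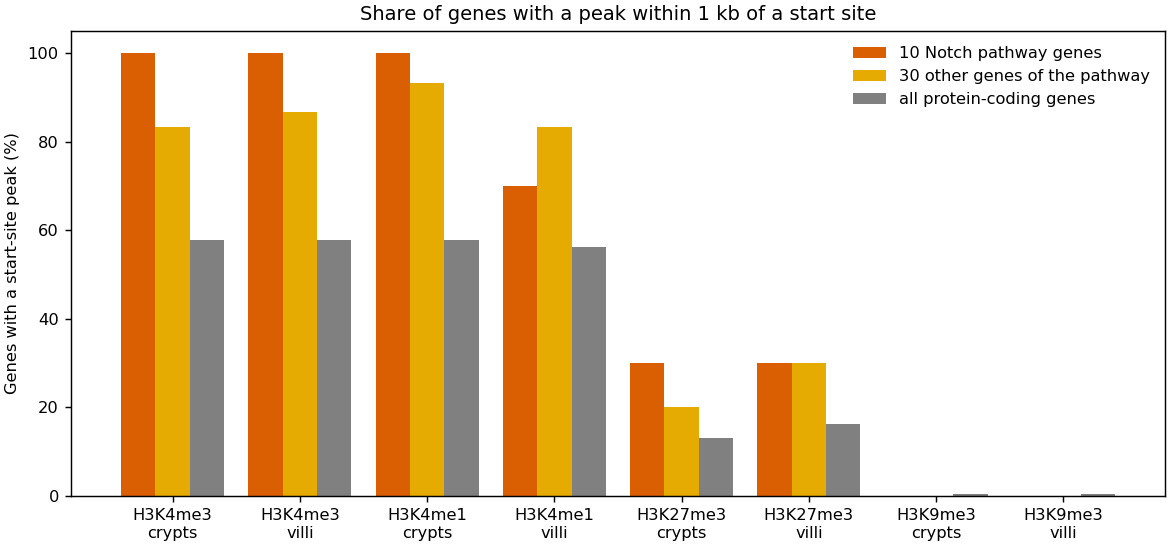
Share of genes (%) with a peak within 1 kb of a coding start site, for each PTM and compartment, in the 10 Notch pathway genes, 30 other genes of the pathway and all 21866 protein-coding genes; each bar comes from 1 library. H3K4me3 bars of the 10 genes stand at 100% in both compartments, and the H3K4me1 bar stands at 100% in crypts and 70% in villi.

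The number of peaks in the windows was 16 in crypts and 16 in villi for H3K4me3, 36 and 33 for H3K4me1, and 4 and 6 for H3K27me3. Every H3K4me3 peak overlapped a peak of the other compartment, compared with 94.9% of crypts peaks and 91.9% of villi peaks in the windows of all genes. For H3K4me1, 29 of 36 crypts peaks were shared (82.9% over all genes) and 32 of 33 villi peaks (82.2%), so that 7 peaks were called in crypts only and 1 in villi only. For H3K27me3, 4 of 4 crypts peaks (92.5%) and 4 of 6 villi peaks (51.1%) were shared. The H3K4me3 shares and that of the crypts H3K4me1 peaks lay near those of all genes, and 4 or 6 H3K27me3 peaks are too few to set apart from them. With a score of 20 or more, 11 of 21 crypts and 12 of 16 villi H3K4me1 peaks were shared, a setting not computed for all genes.

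Covered bases, the number of bases of a window that lie under a peak, were fewer in villi for H3K4me1 at 10 of the 10 genes, where 47.6% of all genes with peaks in both compartments moved this way. The median log2 ratio of villi over crypts was -0.23 over the 10 genes and 0.02 over all genes, and the sum was 77478 bp in crypts and 59846 bp in villi. Values 1.5 times or more lower in villi were found at Dll4 (log2 -0.91) and Notch2 (log2 -0.79), 2 of 10 genes against 12.6% of all genes (in the top 50% of each list also at Hes1, -0.61, and Hey1, -0.74), while at Lfng the log2 ratio was -0.01 and at Hes5 -0.04. Among 27 other genes of the pathway with H3K4me1 in both compartments, 11 had fewer covered bases in villi. For H3K4me3, 9 of the 10 genes had fewer covered bases in villi (57.9% of all genes), with a median log2 ratio of -0.07 against -0.04 over all genes, and none differed by 1.5 times (background 3.37% lower and 4.2% higher). Lfng came nearest (log2 -0.57) and passed 1.5 times in the gene body alone (log2 -0.68). For H3K27me3 the 3 genes with peaks had more covered bases in villi, as did 85.5% of all genes. Of these 3 genes, Lfng alone had 1.5 times or more bases in villi, which 44.3% of all genes showed. The direction of the H3K4me1 count held in the gene body alone for 8 genes, with Hes1 and Jag1 the other way. With peaks scoring 20 or more, 6 genes had fewer bases in villi and Hes5 turned to a log2 ratio of 1.42. Hes6 and Jag1 then had no H3K4me1 peak in crypts and Notch2 none in villi, so these genes were not counted. Hes5 turned to 2.52 in the top 50% of each list, and Lfng turned to 0.066 with peaks under 1 kb apart merged.

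**Figure D2:**
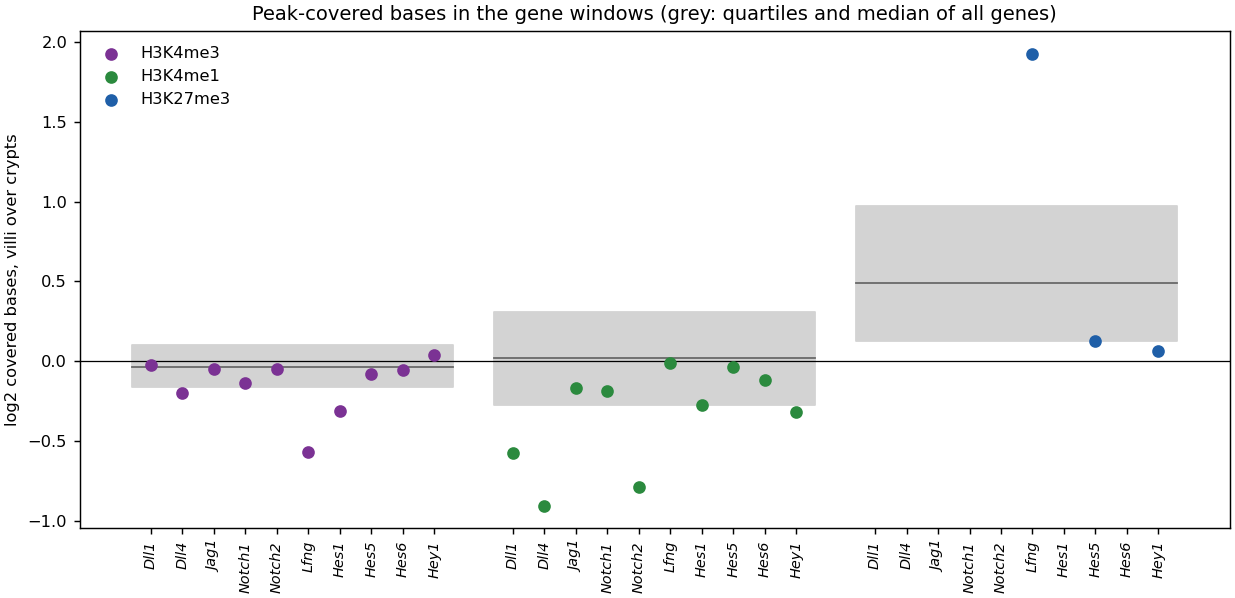
Log2 ratio of peak-covered bases in the gene window, villi over crypts, for each Notch pathway gene and PTM (points, 1 library per compartment), with the quartiles (grey boxes) and median (grey lines) of all genes covered in both compartments. All 10 H3K4me1 points lie below 0, Dll4 lowest at -0.91, and the H3K27me3 point of Lfng lies at 1.93.

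The ligand genes had broad H3K4me3 over their start sites in both compartments, and H3K4me1 peaks within 1 kb of them in crypts only. Dll1 (chr17:15367354-15376872, minus strand), which encodes a Delta ligand made by secretory progenitors, had an H3K4me3 peak (4973 bp in crypts, 5064 bp in villi) that reached from upstream of exon 1 into intron 4. It was wider than the start-site peak of 97.4% of the genes with one in crypts and 96.6% in villi, where the medians were 1968 and 1871 bp. An additional H3K4me3 peak between -5478 and -4110 bp from the start measured 1369 bp in crypts and 1180 bp in villi. H3K4me1 bordered the Dll1 start on both sides in crypts, leaving a gap of 1419 bp between a 1361 bp upstream peak and a 3338 bp peak in the gene. In villi the upstream peak was not called and the peak in the gene began at 1303 bp instead of 889 bp, so that the gap measured 5188 bp.

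Dll4 (chr2:119325784-119335962, plus strand) encodes a Delta ligand of secretory cells and of vessels. Its H3K4me3 start-site peak was 3762 bp wide in crypts against 3375 bp in villi, and its smaller peaks upstream and downstream of the gene were shared as well. Its H3K4me1-covered bases differed more between compartments than those of Dll1 and Jag1, 9466 bp in crypts and 5051 bp in villi. In crypts a peak of 2398 bp from -1457 to 940 bp covered the start and the next peak of 3300 bp ran from intron 3 to intron 6. In villi the peak over the start was not called, and the intragenic peak measured 1444 bp (log2 -1.19, with 2.46% of all H3K4me1 pairs lower). The interval without H3K4me1 around the start was thus 4800 bp in villi. By contrast the upstream H3K4me1 peak, 2658 bp in crypts and 2602 bp in villi, held its place and ranked in the top 7.31% of the crypts list and in the top 0.82% of the villi list. In RefSeq, an upstream promoter of Dll1 had 250 bp under H3K4me1 in crypts and 0 bp in villi. The 250 bases before the Dll4 start likewise lay wholly under H3K4me1 in crypts (250 bp) and outside it in villi (0 bp), while H3K4me3 covered all of them in both. They are shown because this promoter had H3K4me1 over its whole length in crypts and none in villi (RefSeq, GRCm38.p6, chr2:119325534-119325783, plus strand, 5′ to 3′):
Dll4: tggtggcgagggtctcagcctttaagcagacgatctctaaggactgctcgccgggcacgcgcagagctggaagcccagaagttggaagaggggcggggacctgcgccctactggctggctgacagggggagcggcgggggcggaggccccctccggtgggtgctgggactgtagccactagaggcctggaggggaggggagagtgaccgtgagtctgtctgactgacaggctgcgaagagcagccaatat

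Jag1 (chr2:137081456-137116644, minus strand), the gene of a Jagged ligand, had the fewest H3K4me1-covered bases of the 10 genes, 1533 bp in crypts and 1367 bp in villi. Its H3K4me3 start-site peak measured 3905 bp in crypts and 3770 bp in villi, wider than 93.2% and 91% of genes. A 524 bp H3K4me1 peak at -1508 to -985 bp was called in crypts only. The H3K4me1 peak in intron 2 was 1009 bp in crypts and 1367 bp in villi, and its edge nearer the start moved from 1824 to 1406 bp. Jag1 was therefore the ligand gene at which H3K4me1 inside the gene was wider in villi while the upstream peak was absent there. The call in crypts only depended on the distance allowed, since at 2.5 kb rather than 1 kb each of the 3 ligand genes had an H3K4me1 peak in villi as well. The pattern of H3K4me3 in both compartments with H3K4me1 in crypts only and no H3K27me3 was shared by 980 genes, 4.48% of all.

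**Figure D3:**
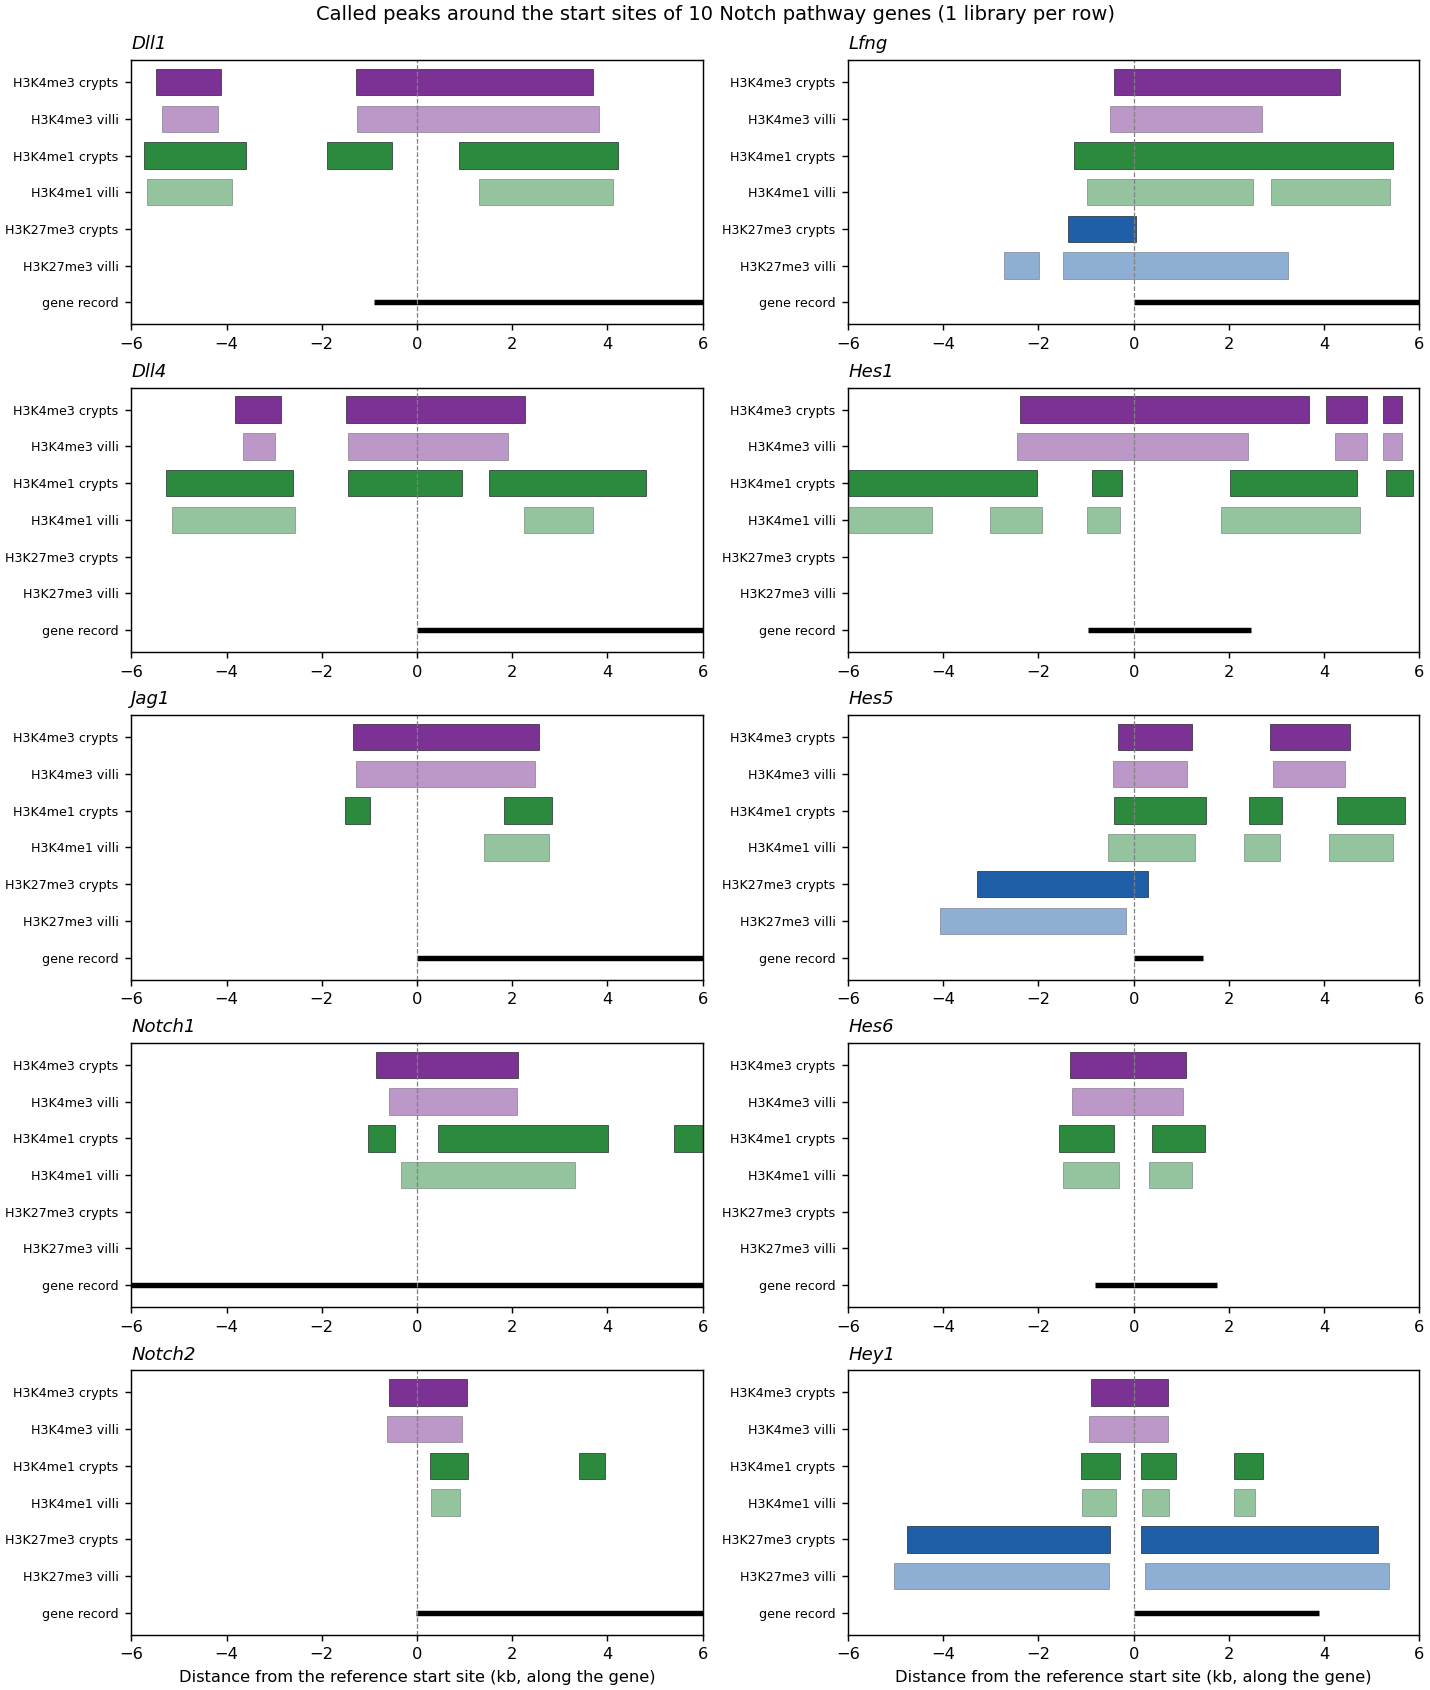
Called peaks within 6 kb of the reference start site (dashed line, distance in kb along the gene) for the 10 genes; each row is 1 library, dark bars are crypts and light bars villi, and the black line is the gene record. H3K4me3 bars span the start in every H3K4me3 row. The H3K4me1 bars just upstream of the Dll1 and Jag1 starts and over the Dll4 start are missing in villi, and H3K27me3 appears only at Lfng, Hes5 and Hey1.

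The receptor genes had narrower H3K4me3 at the start and long stretches of intragenic H3K4me1. Notch1 (chr2:26457903-26516663, minus strand), the main receptor of intestinal progenitors together with Notch2, had an H3K4me3 start-site peak 2973 bp wide in crypts against 2700 bp in villi. Its window held 7 H3K4me1 peaks in crypts and 5 in villi, covering 22493 and 19755 bp. The widest of them, and of all peaks of the 10 genes, spanned exons 3 to 6 from 14089 to 22743 bp after the start in crypts (chr2:26481079-26489733, 8655 bp) and measured 8251 bp in villi (chr2:26481056-26489306). It ranked 131 of 54642 in crypts and 321 of 55341 in villi, within the top 0.24% and 0.58% of the lists. Thus the strongest H3K4me1 region of Notch1 was shared, and its borders moved by 427 bp on the side of the start and by 23 bp on the other.

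At the Notch1 start the order of the peaks as called was opposite to that at Dll4. In crypts H3K4me1 stood on both sides of the start with a gap of 898 bp, and in villi 1 peak of 3638 bp ran over it from -327 to 3310 bp. This villi peak ranked in the top 1.2% of its list. With peaks under 1 kb apart merged, the crypts peaks on either side join over the start and the 250 bases before it. The order is then no longer opposite. The 584 bp peak upstream of the start and a 763 bp peak in intron 2 were called in crypts only. The 250 bases before the Notch1 start, printed for comparison with those of Dll4, held no H3K4me1 in crypts (0 bp) and lay entirely under it in villi (250 bp), again with H3K4me3 over all of them in both compartments (RefSeq, GRCm38.p6, chr2:26503823-26504072, minus strand, 5′ to 3′):
Notch1: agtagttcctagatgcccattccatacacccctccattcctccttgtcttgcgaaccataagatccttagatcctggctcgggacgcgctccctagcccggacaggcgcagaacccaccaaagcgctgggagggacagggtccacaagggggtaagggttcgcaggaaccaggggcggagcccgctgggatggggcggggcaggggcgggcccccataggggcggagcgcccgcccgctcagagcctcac

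Notch2 (chr3:98013527-98150361, plus strand) is the longest of the 10 genes at 136835 bp. Its H3K4me3 start-site peak was 1640 bp wide in crypts against 1587 bp in villi, below the medians of all genes. The window held 7 H3K4me1 peaks in each compartment, yet the covered bases were 14192 bp in crypts and 8232 bp in villi. The difference lay mainly in intron 1. There a crypts peak of 5860 bp (chr3:98024097-98029956) was represented in villi by 2 peaks of 781 and 1932 bp, and a crypts peak of 3571 bp (chr3:98043557-98047127) by peaks of 1538 and 797 bp. A neighbouring peak of 1983 bp in crypts measured 1501 bp in villi. In intron 5, crypts peaks of 925 and 501 bp matched 1 villi peak of 1068 bp, so that here the crypts call was the divided one. In rank, the peak of 3571 bp stood in the top 12.8% of the crypts list and its villi counterparts in the top 72.7% and 78%.

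**Figure D4:**
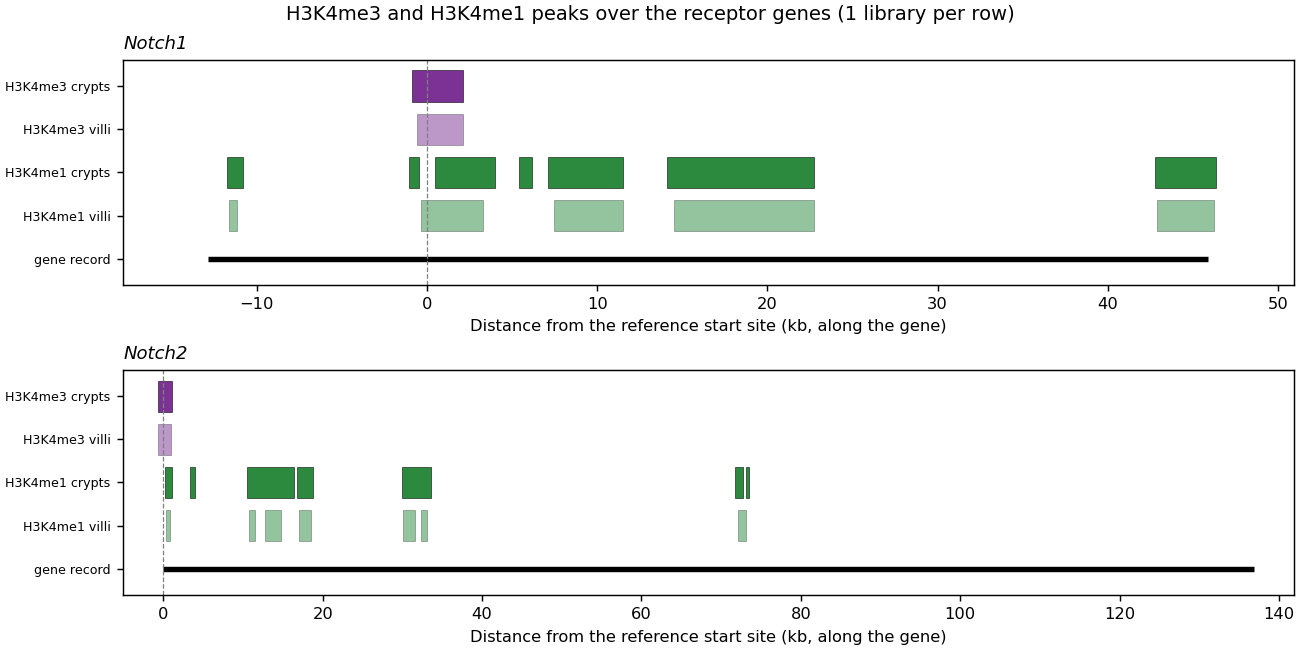
Called H3K4me3 and H3K4me1 peaks over the whole windows of Notch1 and Notch2 (distance from the reference start in kb along the gene; 1 library per row, dark crypts, light villi, black line the gene record). At Notch1 the 8655 bp peak of crypts has a villi counterpart of 8251 bp, and at Notch2 the intron 1 peaks are narrower and split in villi.

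Lfng showed the largest H3K27me3 difference of the 10 genes and the largest H3K4me3 difference in the opposite direction. Lfng (chr5:140607320-140615545, plus strand) encodes lunatic fringe, a glycosyltransferase that adds sugar to Notch receptors and alters their response to ligands. The H3K27me3 start-site peak was 1436 bp wide in crypts (chr5:140605932-140607367) and 4725 bp in villi (chr5:140605826-140610550), a ratio of 3.29 (log2 1.72). Of all shared 1-to-1 pairs of H3K27me3 peaks, 94.1% had a lower ratio. The difference was on the downstream side, as the upstream edge moved by -106 bp and the downstream edge by 3183 bp, from exon 1 into intron 1. A further 732 bp peak between -2723 and -1992 bp was called in villi only. Together the H3K27me3-covered bases of the Lfng window were 1436 bp in crypts and 5457 bp in villi.

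The Lfng H3K4me3 peak was narrower in villi, 4735 bp in crypts and 3188 bp in villi (log2 -0.57, with 4.36% of all H3K4me3 pairs lower). Its downstream edge moved by -1632 bp. It was wider than the peaks of 96.8% of genes in crypts and 85.4% in villi. In crypts it overlapped H3K27me3 by 454 bp, and in villi it lay wholly within H3K27me3, with an overlap of 3188 bp. H3K4me1 was a continuous peak of 6715 bp in crypts and was divided into peaks of 3500 and 2507 bp in villi, with a 647 bp peak downstream of the gene in villi only. Lfng was thus called bivalent in both compartments, by peak overlap over a short stretch in crypts and over the whole H3K4me3 peak in villi. Non-coding genes also lie under peaks at some starts (Gm43703 at Lfng, A930024N18Rik at Dll1, Gm14207 at Dll4 and Gm20421 at Hes5), and such peaks cannot be assigned to the Notch pathway gene alone.

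The Hes and Hey genes fell into a pair with H3K4me3 and H3K4me1 alone, Hes1 and Hes6, and a bivalent pair, Hes5 and Hey1. Hes1 (chr16:30064384-30067796, plus strand), the repressor through which Notch holds back secretory fate, had the widest H3K4me3 start-site peak of the 10 genes in crypts, 6078 bp, and the widest after Dll1 in villi, 4863 bp. It was wider than 99% of genes in crypts and 96.1% in villi, and reached into all 4 exons of the gene in both. The difference (log2 -0.32) was again downstream, where the edge moved by -1278 bp, from beyond the end of the gene to within exon 4. Smaller H3K4me3 peaks downstream of Hes1, 863 and 411 bp in crypts, were shared at 674 and 384 bp. Upstream of Hes1, an H3K4me1 peak of 7639 bp in crypts (chr16:30055677-30063315) overlapped 3 villi peaks over 5272 bp in all. Of these villi peaks, that of 1088 bp lay inside the window, that of 1843 bp ran across its edge and the other one lay beyond it. H3K4me1 next to the start was placed alike, with a gap of 2278 bp in crypts against 2119 bp in villi.

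Hes6 (chr1:91411483-91414038, minus strand) encodes a Hes family member that counteracts Hes1. Its H3K4me3 start-site peak of 2437 bp in crypts against 2348 bp in villi ranked in the top 13.3% and 9.21% of the lists. H3K4me1 stood on both sides of the start, with peaks of 1150 and 1117 bp in crypts and 1172 and 913 bp in villi. The log2 ratio of covered bases at Hes6 was -0.05 for H3K4me3 and -0.12 for H3K4me1.

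Hes5 (chr4:154960923-154962371, plus strand), a Hes gene best known as a Notch target of the nervous system, had the narrowest H3K4me3 start-site peak, 1557 bp in crypts and 1550 bp in villi. The H3K27me3 peak was 3598 bp wide in crypts against 3920 bp in villi, but it was displaced. In crypts it ran from -3300 to 297 bp and covered the start, whereas in villi it ran from -4075 to -156 bp and ended before it. The overlap of H3K27me3 with H3K4me3 was 620 bp in crypts and 278 bp in villi, the opposite order to Lfng. The Hes5 H3K27me3 peak ranked 4394 of 7611 in crypts and 2389 of 13797 in villi, in lists whose unequal length keeps these ranks from being compared. A further H3K4me3 peak in the Hes5 window, 1688 bp in crypts and 1520 bp in villi, overlapped the neighbouring gene Pank4 and is not counted as a start-site peak of Hes5.

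Hey1 (chr3:8663359-8667256, minus strand), the gene of a Hey family repressor known from vessel and heart development, had the most H3K27me3. In crypts 66.4% of its window and in villi 69.5% lay under H3K27me3, as peaks of 4268 and 4964 bp in crypts and 4521 and 5121 bp in villi on either side of the start. The crypts peak over the Hey1 gene body (chr3:8662134-8667097) ranked 6 of 7611 in its list, and the villi peak (chr3:8661893-8667013) ranked 668 of 13797. As at Hes5, the unequal length of the lists keeps these ranks from being compared. The start itself was free of H3K27me3 over a gap of 654 bp in crypts against 766 bp in villi. This gap lay within the H3K4me3 peak of 1618 bp in crypts against 1661 bp in villi. H3K4me1 bordered the start closely, with a gap of 450 bp in crypts against 539 bp in villi. A 530 bp H3K27me3 peak downstream of Hey1 was called in villi only. Hey1 was the only one of the 10 genes with more H3K4me3-covered bases in villi, by a log2 ratio of 0.04 that became -0.018 in the gene body alone.

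The promoters of Lfng and Hes5 are printed because H3K27me3 borders differed next to them and because they alone of the 10 member promoters in the RefSeq table (8 genes with an entry) held the core of the RBPJ binding motif, TGGGAA or its reverse complement TTCCCA, shown in capitals. Both had 2 matches, Lfng at -135 to -130 and at -108 to -103 and Hes5 at -226 to -221 and at -82 to -77, counted from the RefSeq start, which for Lfng lies downstream of the GENCODE start. Of 32851 promoters of the same length, 21.6% held at least 1 match and 2.77% at least 2. A match is a description of letters and not of binding. H3K4me3 and H3K4me1 covered the 250 bases of each in crypts and in villi. H3K27me3 covered 250 bp of the Lfng promoter in both compartments, and 250 bp of the Hes5 promoter in crypts against 95 bp in villi. The sequences run 5′ to 3′ on the plus strand of GRCm38.p6, Lfng from chr5:140607091-140607340 and Hes5 from chr4:154960673-154960922:
Lfng: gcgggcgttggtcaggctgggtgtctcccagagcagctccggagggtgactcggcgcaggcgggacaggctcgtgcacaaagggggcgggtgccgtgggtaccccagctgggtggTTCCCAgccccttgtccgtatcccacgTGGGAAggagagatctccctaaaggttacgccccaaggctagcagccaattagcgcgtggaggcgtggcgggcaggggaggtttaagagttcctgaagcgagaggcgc
Hes5: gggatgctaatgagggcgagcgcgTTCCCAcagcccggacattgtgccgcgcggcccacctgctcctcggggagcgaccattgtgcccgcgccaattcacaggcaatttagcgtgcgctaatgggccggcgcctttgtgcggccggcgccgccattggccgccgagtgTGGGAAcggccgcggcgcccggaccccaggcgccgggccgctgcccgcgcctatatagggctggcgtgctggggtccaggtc

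The 10 member promoters were rich in CpG, with 12 to 34 CpG in 250 bases and a median of 17.5, where the median of all promoters was 6. Notch2 had 34 and Hes5 had 32, Lfng had 18, Notch1 had 16 and Dll4 had 14. The bivalent genes Lfng and Hes5 therefore did not stand outside the range of the genes without H3K27me3.

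The widths of H3K4me3 at the start sites formed an order with Hes1, Dll1 and Lfng at the top in crypts, followed by Jag1, Dll4, Notch1 and Hes6, and with Notch2, Hey1 and Hes5 below the median of all genes. In villi the order was the same except that Dll1 came before Hes1, Jag1 and Dll4 before Lfng, and Hey1 before Notch2. Only Dll1 and Hey1 had a wider peak in villi, by 91 and 43 bp. Over all 16 shared H3K4me3 pairs, 14 were narrower in villi (57% of all pairs), with a median log2 ratio of -0.12 against -0.03. Over 23 1-to-1 H3K4me1 pairs, 17 were narrower in villi (50.7% of all pairs). All 4 H3K27me3 pairs were wider in villi, as were 79.2% of all such pairs.

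**Figure D5:**
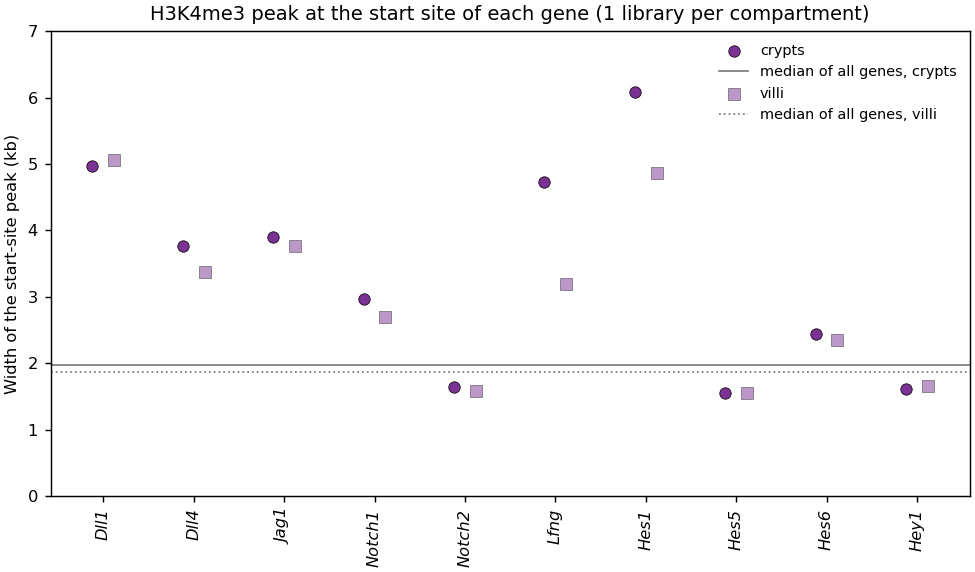
Width (kb) of the H3K4me3 peak at the start site of each Notch pathway gene in crypts (circles) and villi (squares), 1 library each, with the medians of all genes with such a peak (lines, 1968 bp in crypts and 1871 bp in villi). Hes1 and Lfng show the widest separation, 6078 against 4863 bp and 4735 against 3188 bp, whereas Notch2, Hes5 and Hey1 lie below the medians.

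Among 30 other genes of the pathway, H3K4me3 start-site peaks were called at 25 in crypts and 26 in villi, and H3K27me3 start-site peaks at 6 and 9. Notch3, a receptor of mural cells, had a start-site peak of H3K4me3 in crypts only (832 bp) and of H3K27me3 in villi only (867 bp). The ligand gene Jag2 (3017 bp) and Heyl (2435 bp), a Hey family gene, had a start-site peak of H3K27me3 in villi only. Mfng, the gene of manic fringe, and Dtx1, which encodes the ubiquitin ligase Deltex, had start-site H3K4me3 in villi only, at 674 and 1845 bp. Bivalent calls in both compartments were made at Hey2 and at Atoh1, the secretory lineage factor that Hes1 represses. The H3K27me3 peak at Atoh1 measured 7155 bp in crypts and 7528 bp in villi. At Numbl, a relative of the Notch inhibitor Numb, the bivalent call was made in crypts only, with H3K4me3 of 987 bp in crypts against 338 bp in villi, and at Heyl and Dtx1 in villi only.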

How the data were processed

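ChIP-Rx libraries of crypts and villi were aligned by the authors to mm10 and dm6 with bowtie 1.1.2, duplicates and reads mapping to both genomes were removed, and peaks were called with MACS2 2.1.1 at a p-value of 1e-10 (versions per the labels). No pooling of libraries is stated. The deposited lists have no header, and their score, 10 or more throughout, was read as the −log10 p-value of the authors' peak caller, from which a q-value cannot be told apart. The H3K9me2 lists (6 peaks in crypts, 3 in villi) have no peak in the windows, and the input libraries and scaled tracks were not used here.

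Overlaps and covered bases were computed with Python 3.11.15, NumPy 2.4.6 and pandas 2.3.3, and figures with Matplotlib 3.10.9. The overlap code was tested on simulated data. Peaks were called shared at 1 bp of overlap. The reference start is that of the first CCDS transcript, and exons are numbered on it. Changes of 1.5 times in covered bases were counted. The text names all 10 members, other pathway genes whose H3K4me3 or H3K27me3 start-site call differed or that were bivalent, and protein-coding neighbours under a member peak. Members and gene lists were chosen with earlier results of these data known. Promoters came from RefSeq (GRCm38.p6), without an entry for Hes1 and Hey1. Alternatives covered the window, start-site distance, start definition, score, merging and overlap rule.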

Additional observations from a re-analysis of the deposited data

How the results depend on the processing

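Of 126 recomputed counts, H3K9me3 with its counts of 0 left out, 21 moved by over 1.5 times from the reported value. With the start itself inside the peak, H3K4me1 was called at 4 genes in crypts and 3 in villi, and H3K27me3 and the bivalent state in villi at 1. At 2.5 kb from a start, 0 genes had H3K4me1 in crypts only. With a score of 20 or more, H3K4me1 start-site peaks were at 5 genes in crypts and 5 in villi. Of the genes with such H3K4me1 peaks in both compartments, 6 had fewer covered bases in villi and Hes5 had more. Shared H3K4me1 peaks were 11 of 21 in crypts and 12 of 16 in villi. With the top 50% of each list, these shared peaks were 13 of 21 in crypts and 14 of 22 in villi, and the H3K4me1 start-site genes 5 in crypts and 7 in villi. The H3K4me3 start-site genes in villi were 6 in this setting, and the shared H3K4me3 peaks 7 of 8 in crypts and 7 of 7 in villi. The bivalent genes were 0 in crypts and 0 in villi. In the gene body alone, 10 of 10 H3K4me3 peaks in crypts, 10 of 10 in villi and 2 of 2 villi H3K27me3 peaks were shared. In this setting 1 gene had fewer H3K27me3-covered bases in villi. At 2.5 kb more peaks are admitted, and the score and gene body settings leave fewer peaks or bases; other causes were not tested.

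Of 140 values for single genes and peak totals (H3K9me3 again left out), 9 changed direction and 63 moved without doing so, by 0.005 or more on the log2 scale or, for a total, by over 1.5 times. The log2 ratio for H3K4me1 was -1.95 at Dll4 and -2.76 at Notch2 in the top 50% and -2.72 at Hes1 with a score of 20 or more, and for H3K27me3 at Lfng it was 6.07 in the gene body alone. In the gene body alone, the log2 ratio of villi over crypts was -0.033 for H3K27me3 at Hey1, 0.30 and 0.44 for H3K4me1 at Hes1 and Jag1, and 0.037 and -0.018 for H3K4me3 at Dll1 and Hey1. For H3K4me1 at Hes5 it was 1.42 with a score of 20 or more and 2.52 in the top 50%, and for H3K4me3 at Dll1 0.026 in the top 50%. Merging peaks under 1 kb apart gave 0.066 for H3K4me1 at Lfng. No paired analysis was possible because each group is 1 library. Depth is unknown, and leaving out a replicate could not be done.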
